A study of Nothobranchius furzeri with 20 samples.

Results

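Skin of male Nothobranchius furzeri, the turquoise killifish, was compared for 2 changes with age. All animals were of the strain MZM-04/10p, and the species lives for months in seasonal pools. The comparison takes all 20 of the 20 libraries in the series, sorted by the numbers in their titles into 4 sets of 5. JM117 to JM121 came from fish of 9 weeks that swam in a swim tunnel, a chamber with a water current. JM124 to JM128 came from fish of 9 weeks without exercise. JM132 to JM136 and JM140 to JM144, the 2 title runs compared here, both came from fish of 27 weeks and carry the same swim-tunnel label. No unexercised set of 27 weeks is named. The 9-week runs differ in exercise while both 27-week runs share 1 label, and no value here shows whether both were exercised. If the label of JM140-JM144 were wrong, the contrast below would be one of age by exercise. If that of JM132-JM136 were wrong, the contrast with the 9-week sets exchanged, also given below, would be. The runs are therefore called by their title numbers. Whether each library is a separate animal is not stated, so every p-value below refers to the scatter among libraries, which may be technical.

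For every gene the change from 9 to 27 weeks was taken from JM117-JM121 to JM132-JM136, and again from JM124-JM128 to JM140-JM144. Which 9-week set stands beside which run follows the order of the title numbers, since the labels pair none of them. The second change was then subtracted from the first. A positive difference means that the gene was raised more, or lowered less, in JM132-JM136 than in JM140-JM144, each relative to its own 9-week set. The same number equals the difference between the runs at 27 weeks minus that between exercised and unexercised fish at 9 weeks. Both runs share 1 label and each 9-week set has title numbers of its own, so age, exercise and anything else that goes with a title run cannot be told apart.

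Fish skin holds an epidermis of keratinocytes and mucous cells over a dermis of collagen-rich connective tissue, pigment cells and scales, with blood and immune cells and often some muscle taken along in dissection. In such a mixed tissue fewer cells of a type and less RNA per cell cannot be told apart. A difference of age changes is an interaction: it asks whether age changed a gene by the same factor in both runs. None of the 26739 gene identifiers is paired with a name in the tables or the RefSeq gene list used here (0 matches), so no gene is given a name or a function, the tissue could not be checked against its marker genes, and at most 2 identifiers in each direction are given for a comparison.

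Totals ran from 20597690 to 38619614 counted reads per library. Within sets, all 40 pairs of libraries differed by more than counting error (lowest chi-square per degree of freedom 34.3). JM141 stood apart from its set in several of the measures below. JM117 did so in its slope on gene length and in a further measure that cannot show whether a 9-week library follows its set. Counts without both libraries are given where they matter.

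The age change differed between the runs for a large part of the skin transcriptome. Of 19140 genes tested, 5832 (30.5%) passed an adjusted p of 0.05 in edgeR's quasi-likelihood test, with a positive difference for 3387 genes (17.7%) and a negative one for 2445 (12.8%). The difference was more than 2-fold in 2525 of them (1486 positive and 1039 negative), more than 4-fold in 452 (290 and 162) and more than 8-fold in 76 (44 and 32). The median size of the difference over all tested genes was 0.508 on the log2 scale. DESeq2 called 6427 genes, 3515 positive and 2912 negative, and 5798 of the 5832 genes were among them in the same direction. Without JM117 and JM141 there were 6525 calls, 5139 of them shared in the same direction.

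How the calls divide between the directions rested on the scaling of the libraries. The counts above use TMM scaling, which sets libraries to a common level through the bulk of genes. With library totals alone, 6005 genes were called, 5089 positive and 916 negative, and the median of all genes moved from 0.0161 to 0.323 on the log2 scale. The share of calls that were positive was 84.7% with totals, 58.1% with TMM and 50.1% with upper-quartile scaling. Under TMM the share also moved with the gene filter, to 52.6% at 1 CPM in 5 libraries and 52.9% without a filter. It was 53% without JM117 and JM141, and 51.5 to 60% with 1 library left out. Of the 5832 genes called under TMM, 4303 (73.8%) were called in the same direction with library totals and 0 in the other. Statements on direction below hold relative to the TMM level.

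More genes changed with age in JM132-JM136. Its age change passed the test for 9658 genes (50.5%), 4928 higher and 4730 lower at 27 weeks than in JM117-JM121. The age change of JM140-JM144 passed for 3203 genes (16.7%), 1506 higher and 1697 lower than in JM124-JM128. By the labels, this second comparison also goes from unexercised to swim-tunnel fish, and the first does not. Changes over 2-fold were called in 3814 genes of the first and 696 of the second, and over 4-fold in 699 and 152. The median size of the age change over all genes was 0.531 on the log2 scale in JM132-JM136 and 0.283 in JM140-JM144. With only the 2 sets of JM140-JM144 and JM124-JM128 in the fit, 2628 genes passed. With library totals in place of TMM, 9125 genes passed in JM132-JM136 and 5033 in JM140-JM144.

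These 2 age changes share no library, but they share the gene filter, the TMM scaling and the fit's estimate of the spread. Both passed in the same direction for 1924 genes, 846 higher and 1078 lower. That is 19.9% of the genes called in JM132-JM136 and 60.1% of those called in JM140-JM144. They passed in opposite directions for 185 genes, 1.92% and 5.78% of the same lists. Across the 19140 genes, which are not independent replicates, Pearson's r of the 2 age changes was 0.36 and Spearman's rho 0.406.

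**Figure D1:**
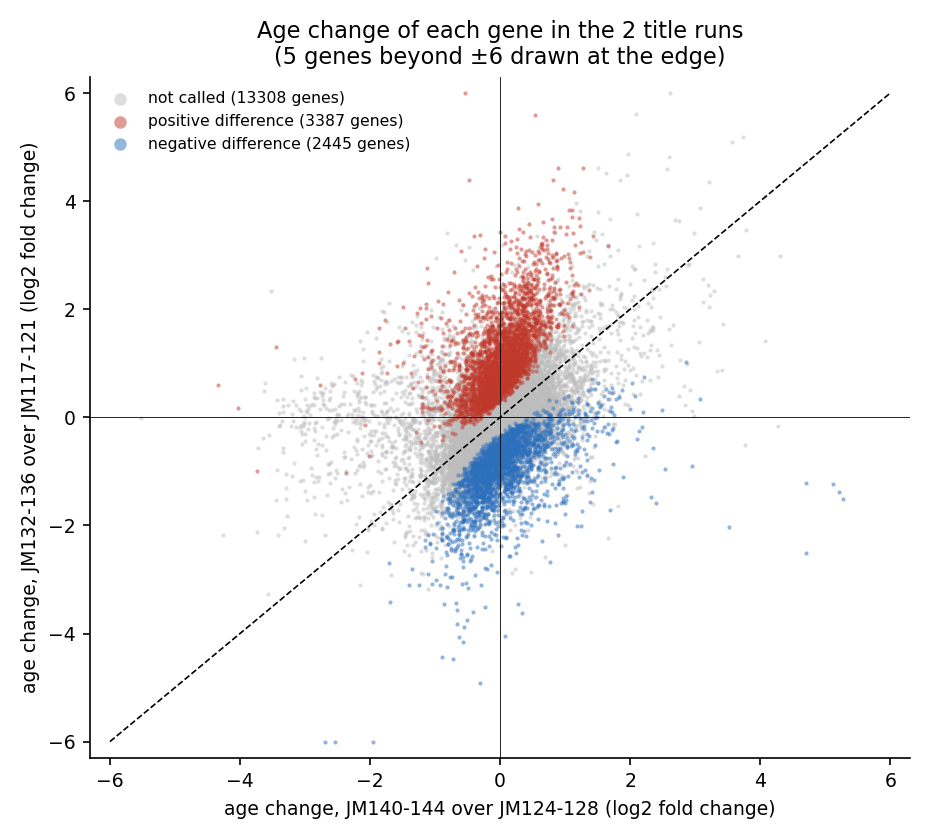
Each point is 1 of the 19140 tested genes, with its log2 age change in JM140-JM144 over JM124-JM128 on the horizontal axis and in JM132-JM136 over JM117-JM121 on the vertical axis; red and blue mark the 3387 positive and 2445 negative differences, grey the genes not called, and the dashed line equal changes. Red and blue genes lie mostly above and below a horizontal change near 0, and 5 genes beyond 6 on either axis are drawn at the edge.

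The called genes were then sorted by which age change passed. The difference is built from these same age changes, so this is a description of where it came from and not separate evidence. Among the 3387 positive genes, 2548 (75.2%) were higher at 27 weeks in JM132-JM136 while the change in JM140-JM144 did not pass. Their median age change was 0.94 in JM132-JM136 and 0.02 in JM140-JM144 on the log2 scale. Another 391 (11.5%) were higher with age in both runs, with medians of 1.66 and 0.54. Only the fall in JM140-JM144 passed for 190 genes (5.61%), with medians of 0.14 and -0.56. The runs changed in opposite directions in 3.72%, neither age change passed in another 3.72%, and 6 genes were lower in both.

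The 2445 negative genes followed the same order. In 1668 of them (68.2%) only the fall in JM132-JM136 passed, with median age changes of -0.93 in JM132-JM136 and -0.04 in JM140-JM144. Both runs were lower for 313 genes (12.8%), with medians of -1.37 and -0.53. A rise in JM140-JM144 alone passed for 10.3%, with medians of -0.16 and 0.92. Of the rest, 59 (2.41%) changed in opposite directions, 150 passed for neither age change and 3 were higher in both. A change that misses the threshold in JM140-JM144 is not shown to be absent there.

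**Figure D2:**
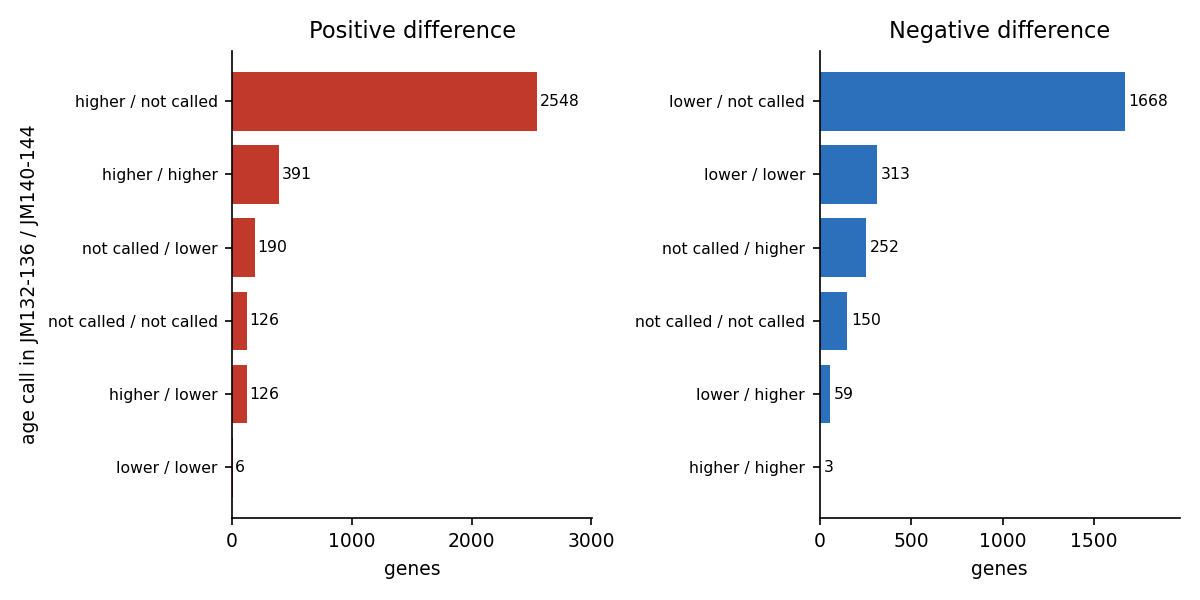
Bars give the number of genes with a positive (left) or negative (right) difference for each pair of age calls, JM132-JM136 first and JM140-JM144 second, on a linear axis from 0. The longest bars, 2548 and 1668 genes, are those called in JM132-JM136 and not called in JM140-JM144.

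The genes with the smallest p in each direction showed this pattern in single libraries. Nfu_g_1_008470 stood at 14.2, 15.2, 15.9, 14.7 and 14.0 CPM (counts scaled to library size, with TMM) in JM117 to JM121 and at 14.8, 14.9, 18.7, 16.1 and 17.2 CPM in JM124 to JM128. It reached 56.7, 55.0, 53.9, 60.5 and 58.5 CPM in JM132 to JM136, against 18.1, 17.9, 14.3, 18.4 and 18.8 CPM in JM140 to JM144. All 5 libraries of JM132-JM136 lay far above the other 15, and the other 3 sets overlapped. The age change was 3.85-fold in JM132-JM136 (log2 1.94, SE 0.0857, adjusted p = 1.31e-11) and 1.07-fold in JM140-JM144 (log2 0.10, SE 0.0834, adjusted p = 0.433). The log2 difference was 1.84 (SE 0.118, adjusted p = 1.75e-08).

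Nfu_g_1_011220 behaved alike at a lower level. Its 9-week values were 9.43 to 12.3 CPM in JM117-JM121 and 10.5 to 12.5 CPM in JM124-JM128. At 27 weeks it had 47.2, 46.9, 41.4, 50.8 and 50 CPM in JM132 to JM136 and 14.0, 11.4, 11.2, 13.8 and 12.7 CPM in JM140 to JM144. Again every library of JM132-JM136 was above the other 15. The log2 age changes were 2.10 (SE 0.095) and 0.14 (SE 0.0923, adjusted p = 0.314), a difference of 1.97 (SE 0.131, adjusted p = 1.98e-08).

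Nfu_g_1_006734 was close to 0 in JM132-JM136. It held 6.99, 8.11, 7.38, 7.62 and 9.36 CPM in JM117 to JM121 and 7.84, 7.42, 7.63, 7.99 and 7.42 CPM in JM124 to JM128. At 27 weeks JM132 to JM136 had 0.501, 0.314, 0.516, 0.596 and 0.395 CPM, from 9 to 23 counts per library, and JM140 to JM144 had 5.63, 4.29, 6.16, 4.39 and 4.33 CPM, from 101 to 153 counts. Both runs lay below all 10 libraries of 9 weeks, and JM132-JM136 lay far below JM140-JM144. The gene fell 16.8-fold with age in JM132-JM136 (log2 -4.07, SE 0.166, adjusted p = 1.30e-11) and 1.54-fold in JM140-JM144 (log2 -0.63, SE 0.141, adjusted p = 0.00615). The log2 difference was -3.45 (SE 0.212, adjusted p = 1.75e-08).

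Nfu_g_1_006266 fell in the same manner. Its level was 9.36, 12.6, 14.0, 12.1 and 17.1 CPM in JM117 to JM121 and 13.4, 13.3, 10.2, 12.9 and 11.4 CPM in JM124 to JM128. It was 0.592, 0.698, 0.842, 0.880 and 0.605 CPM in JM132 to JM136, from 13 to 34 counts, and 8.18, 7.25, 10.1, 7.53 and 8.40 CPM in JM140 to JM144. JM132-JM136 was below all others, while JM140-JM144 overlapped the range of the 9-week libraries. The log2 age changes were -4.16 (SE 0.174, adjusted p = 1.30e-11) and -0.56 (SE 0.149, adjusted p = 0.0153), a difference of -3.59 (SE 0.223, adjusted p = 1.75e-08).

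**Figure D3:**
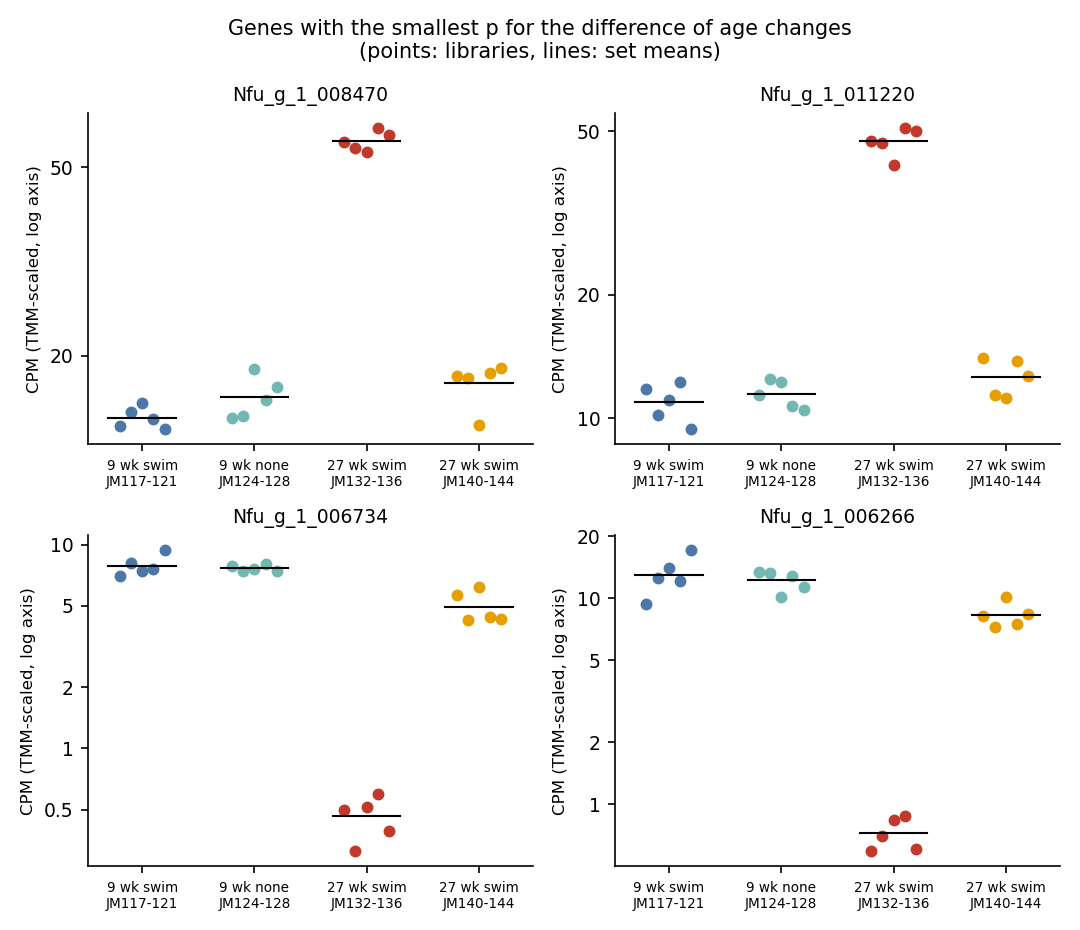
CPM (TMM-scaled, log axis) in each library, in 4 panels of 1 gene each, with 1 colour per set and a line at each set mean. The red points, JM132-JM136, stand above all others for Nfu_g_1_008470 and Nfu_g_1_011220 (47.3 ± 3.68 CPM on average for the latter, SD, n = 5) and below all others for Nfu_g_1_006734 and Nfu_g_1_006266.

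Separation of this kind was common on the side of JM132-JM136. Its 5 libraries lay above all 15 others for 2334 of the tested genes (12.2%), among them 2139 of the 3387 positive genes (63.2%), and below all 15 others for 1427 (7.46%), among them 1158 of the 2445 negative genes (47.4%). These shares describe genes called on the same values. The 5 libraries of JM140-JM144 lay above all 15 others for 85 genes (0.444%) and below them for 110 (0.575%), beside 5832 called genes or 30.5% of those tested.

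A smaller group of genes changed with age in opposite directions, 185 of the 19140 tested. Of these, 59 were lower in JM132-JM136 and higher in JM140-JM144 and the rest the reverse. The median age changes in JM132-JM136 and JM140-JM144 were -0.59 and 0.58 on the log2 scale in those 59, and 0.55 and -0.42 in the rest. The 185 genes became 94 without JM143, 115 without JM144, 297 without both JM117 and JM141, and 698 with library totals in place of TMM. In 14 genes (0.0731% of those tested) all of JM132-JM136 lay above and all of JM140-JM144 below the 10 libraries of 9 weeks. The reverse held in 10 genes (0.0522%).

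Nfu_g_1_007941 rose in JM132-JM136 and fell in JM140-JM144. It held 29.8, 29.9, 28.5, 30.8 and 28.4 CPM in JM117 to JM121 and 63.7, 61.0, 58.5, 64.0 and 60.8 CPM in JM132 to JM136. In the other arm it held 33.7, 41.9, 39.5, 39.6 and 37.6 CPM in JM124 to JM128 and 31.0, 28.8, 25.2, 22.2 and 26.7 CPM in JM140 to JM144. Neither pair of sets overlapped. Set against the other 9-week set, JM140-JM144 did overlap JM117-JM121, while JM132-JM136 lay above both 9-week sets. The log2 age changes were 1.06 (SE 0.0813, adjusted p = 3.94e-09) and -0.52 (SE 0.0809, adjusted p = 0.000627), and the difference was 1.58 (SE 0.115, adjusted p = 3.45e-08). It was 0.82 (adjusted p = 3.39e-05) with the 9-week sets exchanged. At 9 weeks the exercised set lay below the unexercised one, with a log2 change of -0.38 that did not pass (adjusted p = 0.0891).

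Nfu_g_1_013299 moved less evenly. JM117 to JM121 had 15.5, 13.4, 13.0, 20.9 and 15.2 CPM and JM132 to JM136 had 27.0, 23.2, 18.5, 29.1 and 26.9 CPM. JM124 to JM128 had 22.3, 25.6, 17.1, 22.4 and 21.7 CPM and JM140 to JM144 had 15.5, 9.19, 10.5, 11.3 and 10.7 CPM. JM120 and JM134 bridged the first pair of sets, and the second pair did not overlap. Each 27-week run overlapped the 9-week set of the other arm. The log2 difference was 1.61 (SE 0.225, adjusted p = 2.92e-05), from age changes of 0.68 (SE 0.158, adjusted p = 0.00149) and -0.93 (SE 0.16, adjusted p = 0.00123). With the 9-week sets exchanged it was 0.64 (adjusted p = 0.0354), since the exercised and unexercised 9-week sets themselves differed by -0.48 (adjusted p = 0.246).

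In the other direction, Nfu_g_1_011770 fell in JM132-JM136 and rose in JM140-JM144. Its levels were 34.3, 54.5, 47.1, 50 and 43.9 CPM in JM117 to JM121 and 21.4, 20.2, 23.7, 31.1 and 25.3 CPM in JM132 to JM136. They were 59.7, 38.1, 37.6, 45.3 and 46.3 CPM in JM124 to JM128 and 72.3, 70.5, 86.1, 103.0 and 81.2 CPM in JM140 to JM144. The 9-week sets overlapped and the 27-week runs lay on either side of them. The log2 age changes were -0.92 (SE 0.154, adjusted p = 5.89e-05) and 0.86 (SE 0.153, adjusted p = 0.00144), and the difference was -1.78 (SE 0.217, adjusted p = 7.23e-06).

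Nfu_g_1_002210 had the widest spread of the 4. It held 23.0, 23.9, 15.5, 14.1 and 11.6 CPM in JM117 to JM121 and 7.15, 3.35, 7.87, 10.6 and 2.74 CPM in JM132 to JM136. It held 8.46, 10.9, 6.37, 8.28 and 14.4 CPM in JM124 to JM128 and 57.9, 74.2, 27.8, 53.5 and 29.6 CPM in JM140 to JM144. No library of a 27-week run overlapped its own 9-week set. Set against the other 9-week set, JM132-JM136 did overlap JM124-JM128, while JM140-JM144 lay above JM117-JM121. The log2 age changes were -1.47 (SE 0.36, adjusted p = 0.00212) and 2.33 (SE 0.366, adjusted p = 0.000663), a difference of -3.80 (SE 0.512, adjusted p = 2.07e-05), or -2.07 (adjusted p = 0.00404) with the 9-week sets exchanged.

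**Figure D4:**
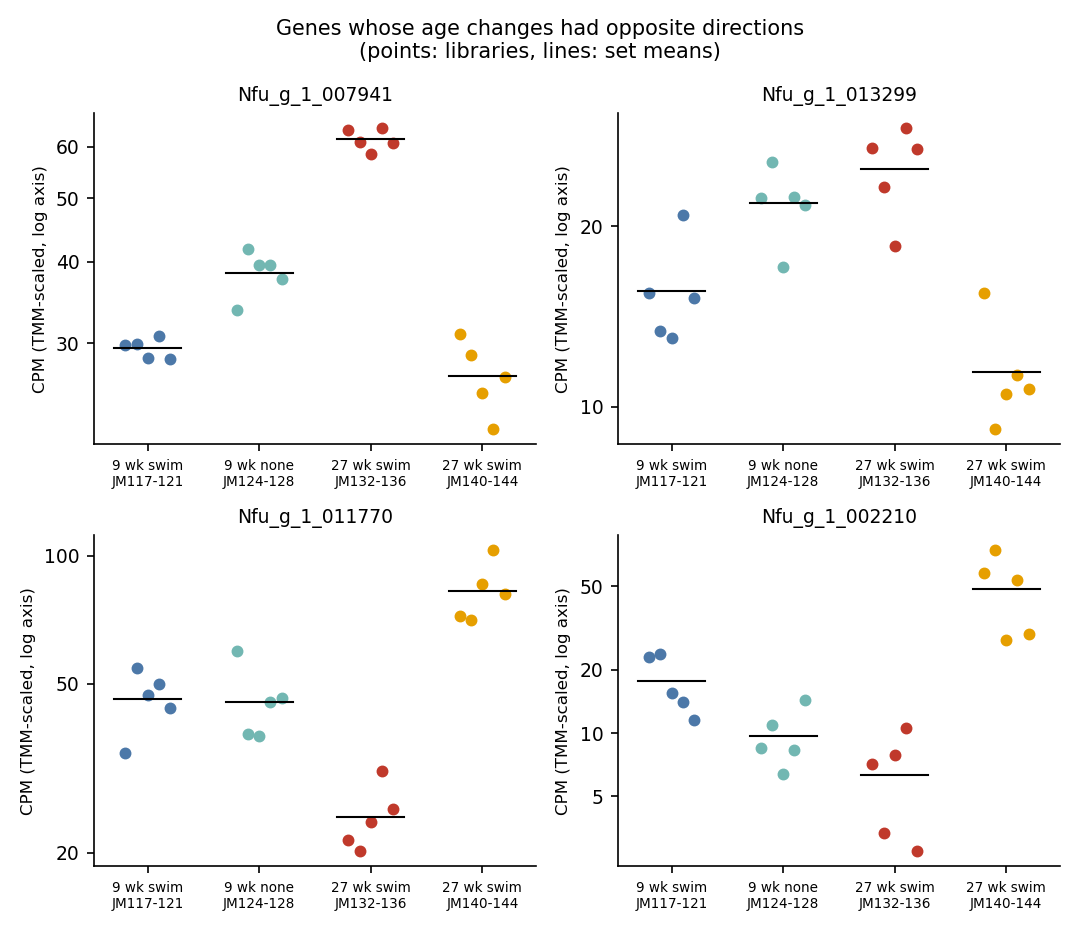
CPM (TMM-scaled, log axis) in each library for the 4 genes with opposite age changes, with 1 colour per set and a line at each set mean. JM132-JM136 (red) lies above and JM140-JM144 (orange) below its own 9-week set for Nfu_g_1_007941, the reverse holds for Nfu_g_1_011770 and Nfu_g_1_002210, and JM120 and JM134 overlap for Nfu_g_1_013299.

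The difference was also read the other way, as a part at 27 weeks and a part at 9 weeks. In the same fit JM132-JM136 and JM140-JM144 differed in 8187 genes (42.8%), and JM117-JM121 and JM124-JM128 differed in 5 (0.0261%). An unadjusted p under 0.05 was found at 9 weeks in 2612 of the 19140 genes tested. So few genes past the threshold do not show that the 9-week sets were alike. These parts use the same libraries as the difference, so their sizes are set side by side and no overlap is given. Among positive genes the median size of the part at 27 weeks was 0.819 on the log2 scale and that at 9 weeks 0.138. Among negative genes they were 0.797 and 0.145, and over all tested genes 0.458 and 0.177. The 9-week part was the larger one in 166 positive genes (4.9%) and 156 negative genes (6.38%), against 5270 of all tested genes (27.5%).

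Since the 9-week part is subtracted, it enlarged the difference where its sign opposed the 27-week part. That was so in 2388 of the 3387 positive genes (70.5%) and 1616 of the 2445 negative genes (66.1%), and in 9363 of all tested genes (48.9%). Among genes with opposite age changes it was 111 of the positive (88.1%) and 47 of the negative ones (79.7%). Selection on the difference favours such genes, so these shares are a description. With the 9-week sets exchanged, so that JM132-JM136 was set against JM124-JM128 and JM140-JM144 against JM117-JM121, 6055 genes passed. Of the 5832 genes, 3717 (63.7%) passed in the same direction there, and 16 in the other. The sign of the difference changed in 322, whether or not it passed. Both contrasts hold the same 27-week part and differ only in the sign of the 9-week part, so much of this agreement was built in.

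The 5 genes past the threshold at 9 weeks all had an adjusted p of 0.0499, at the edge of the threshold of 0.05, and were singled out after their values were seen. Only Nfu_g_1_010742 was higher in the exercised set, at 17.1 ± 2.10 CPM in JM117-JM121 and 7.12 ± 2.63 CPM in JM124-JM128 (SD, n = 5 each). At 27 weeks it had 13.3 ± 2.16 CPM in JM132-JM136 and 10.3 ± 1.37 CPM in JM140-JM144 (SD, n = 5 each). Its log2 difference of age changes was -0.90 (SE 0.288, adjusted p = 0.0235), with 0.36 from the part at 27 weeks and 1.26 from that at 9 weeks. Here the 9-week part was the larger one.

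Of the 4 lower ones, the 2 with the smallest p are given. Nfu_g_1_011169 had 6.58 ± 1.75 CPM in JM117-JM121 and 15.5 ± 2.93 CPM in JM124-JM128, and 3.40 ± 0.708 and 29.2 ± 6.31 CPM in JM132-JM136 and JM140-JM144 (SD, n = 5 each). The parts pointed the same way, -3.10 at 27 weeks and -1.24 at 9 weeks, so the difference of -1.86 (SE 0.287, adjusted p = 7.72e-05) was smaller than the gap between the runs. Nfu_g_1_010666 had 11 ± 2.58, 18.8 ± 1.28, 13.9 ± 1.28 and 12.3 ± 1.28 CPM in JM117-JM121, JM124-JM128, JM132-JM136 and JM140-JM144 (SD, n = 5 each). Its difference of 0.95 (SE 0.183, adjusted p = 0.000649) had only 0.18 from the 27-week part and rested on the high unexercised set of 9 weeks.

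The part of all counted reads in the called genes was also taken. Genes with a positive difference were 17.7% of those tested and genes with a negative one 12.8%. The positive genes took 12.1 to 14.7% of the counts in JM132 to JM136, with a mean of 13.1 ± 1.05% (SD, n = 5). They took 5.86 to 6.87% in JM117-JM121, 6.37 to 8.26% in JM124-JM128 and 5.67 to 6.58% in JM140-JM144. The negative genes took 21.1 to 23.9% in JM132-JM136, 26.4 to 31.4% in JM117-JM121, 25.9 to 30.2% in JM124-JM128 and 26.9 to 30.8% in JM140-JM144. JM132-JM136 did not overlap any other set in either share, and the other 3 sets overlapped one another. The genes were picked on these libraries, so no test is given.

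Calls were spread over the range of abundance. The tested genes were put in 4 equal groups by mean level. In the lowest group (median 1.01 CPM) 11.7% were called, in the next (5.70 CPM) 32.0%, and in each of the upper groups (17.2 and 56.2 CPM) 39.1%. Among the least abundant genes 311 were positive and 247 negative. The middle groups had 1037 positive and 495 negative calls, then 1192 and 680, while the most abundant group had 847 positive and 1023 negative.

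Gene length went with the direction of the difference. Of 4 equal groups by length, the longest (median 6.45 kb) stood apart. In it 698 genes were positive and 871 negative, and the median difference of all genes there was -0.11 on the log2 scale. In the shortest group (median 0.792 kb) 860 were positive and 471 negative, with a median of 0.07. Most of this lay in the age change from JM117-JM121 to JM132-JM136, with a median of -0.14 in the longest and 0.06 in the shortest group. Either of these sets can contribute to it. In the age change of JM140-JM144 the medians were -0.05 and -0.00052. With each library's trend on length removed, 5840 genes were called, 3436 positive and 2404 negative, and 5540 of the 5832 were shared in the same direction.

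Measures of whole libraries were put through the same contrast with an exact two-sided permutation test, exchanging set labels within each age (63504 arrangements, smallest possible p 3.15e-05). A low p there can come from a gap at either age. For the length slope, each gene's log2 CPM was taken relative to its mean over the 20 libraries and set against log2 gene length. The slope thus compares libraries and does not give how CPM itself depends on length. It averaged -0.0263 ± 0.0157 in JM132-JM136, 0.00387 ± 0.0155 in JM140-JM144, 0.0191 ± 0.012 in JM117-JM121 and 0.00334 ± 0.00471 in JM124-JM128 (SD, n = 5 each). The difference of differences was -0.046 (exact p = 0.0011, adjusted p = 0.00551 over 5 measures). It was made of -0.0302 between the runs at 27 weeks minus 0.0158 between the sets at 9 weeks. The TMM scaling factor averaged 1.07 ± 0.0833, 0.899 ± 0.0562, 1.01 ± 0.0861 and 1.04 ± 0.0795 in the same order, a difference of 0.21 (exact p = 0.012, adjusted p = 0.0299). Total counts, how many genes reached 1 CPM, and the part of all counts in the top 10 genes did not pass (exact p = 0.462, 0.0763 and 0.188, adjusted p = 0.462, 0.127 and 0.235). The part of these library differences in the calls was not tested, beyond the counts with library totals and with the length trend removed.

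Each library was finally left out of the calling and then put in the place of its whole set, for the genes called without it. The other 3 sets are the ones that made the calls, so this is not an independent sample of the contrast. The median size of the part at 27 weeks was 0.819 among positive and 0.797 among negative genes on the log2 scale. That of the part at 9 weeks was 0.138 and 0.145. The sign for a 9-week library was thus largely set by the 27-week libraries, and keeping it cannot show that the library follows its set. For JM132 to JM136 the sign shows in how many genes a library went in the called direction, not by how much. The 9-week part opposed the 27-week part in 70.5% of positive and 66.1% of negative genes. A library of JM132-JM136 at the level of JM124-JM128 could therefore keep the sign in many genes too. In JM140-JM144 the median log2 age change was only 0.0107 in positive and -0.00572 in negative genes, against 0.925 and -0.886 in JM132-JM136. A library of JM140-JM144 at the 9-week level would therefore mostly keep the sign too. Its sign shows that it stays apart from JM132-JM136, not that it follows its own set. The median log2 difference over positive genes was 0.81 to 1.06 over all 20 libraries and that over negative genes -1.05 to -0.61. The sign was kept in 97.6 to 99.9% of positive genes for 19 of the 20 libraries and in 92.8% for JM141. In negative genes it was kept in 91.0% for JM141, in 95.0% for JM135, in 96.4% for JM133 and in 97.7 to 99.6% for the others. The number of calls with 1 library left out ran from 5341 to 6359, the highest without JM141.

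**Figure D5:**
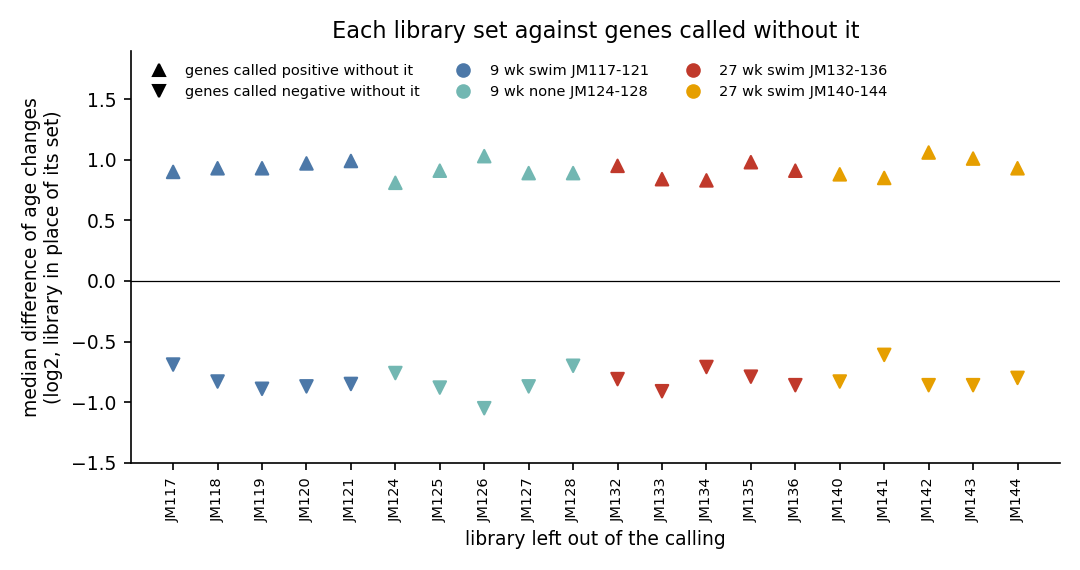
For each library, left out of the calling, the median log2 difference of age changes with that library in place of its set is shown for the genes called positive (upward triangles) and negative (downward triangles) without it; colours mark the 4 sets. All upward triangles lie between 0.81 and 1.06 and all downward ones between -1.05 and -0.61, with JM141 closest to 0 among the latter.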

How the data were processed

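The 20 skin RNA libraries were made with the TruSeq kit v2, per the labels' protocols. The submitters' processing notes name featureCounts 1.4.6-p4, STAR 2.4.1d and bcl2fastq 1.8.4. For the genome build, the annotation, strand and multiply mapping reads, details were not given in the sources used here, so overlapping, antisense or closely similar genes may share reads. The deposited counts are whole reads per gene, not normalized. The RPKM values deposited by the authors were divided by gene length and, as a check against the counts showed, by the 20 library totals in turn from gene to gene, so that 5% of values were scaled by their own total. They served as an alternative and as the source of gene lengths.

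The members, lists and tests were chosen with earlier results of these data known. All 20 libraries entered 1 edgeR 4.0.16 fit (R 4.3.3) of 4 sets, with TMM scaling, filterByExpr on the 4 sets, robust quasi-likelihood tests and Benjamini-Hochberg adjustment over 19140 genes at 0.05. The SE was taken as |log2 fold change| over the root of the test's F. CPM is TMM-scaled, and log2 CPM has a prior count of 2. The identifiers named have the smallest p at a mean of at least 1 CPM, 2 in each direction. For opposite age changes the larger of both adjusted p decided. Replicate numbers only name libraries. The script was tested on simulated data. Alternatives used DESeq2 1.42.0, limma 3.58.1 and sva 3.50.0, other scalings and filters, length correction, thinning and each library left out. Library totals without TMM and the omission of JM117 with JM141 were chosen after seeing the data. Marker lists need gene names and were not run.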

Additional observations from a re-analysis of the deposited data

Results flagged for a closer look

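A test of the difference itself found 5832 genes whose age change differed between the runs. The 8 identifiers described above are among them, with log2 differences of 1.84, 1.97, 1.58 and 1.61 for Nfu_g_1_008470, Nfu_g_1_011220, Nfu_g_1_007941 and Nfu_g_1_013299. They were -3.45, -3.59, -1.78 and -3.80 for Nfu_g_1_006734, Nfu_g_1_006266, Nfu_g_1_011770 and Nfu_g_1_002210. Of the library measures, the length slope (-0.046) and the scaling factor (0.21) passed as well.

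Single libraries lay far from the other 4 of their set in 8 of 76 checks, where normally distributed values would give about 3.8 by chance. Several checks used the same called genes, and shares close to their upper limit are not normally distributed. JM141 accounted for 4 of the 8. For the genes called without it, it kept the sign in 92.8% of positive and 91.0% of negative genes, against at least 99.6% and 99.0% for the other libraries of JM140-JM144, and its median over negative genes was -0.61, with the next library at -0.80. Genes with a negative difference took 26.9% of its counts, and at least 29.7% in the other 4. JM117 had a length slope of -0.0014, with the next library of its set at 0.0207, and kept the sign in 97.9% of negative genes, with the next at 99.2%. JM135 kept it in 97.6% of positive genes, with the next at 99.6%. JM142 had the lowest Nfu_g_1_008470 of its set, a log2 CPM of 3.843, where the next library had 4.167.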

How the results depend on the processing

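The log2 difference of each of the 8 named identifiers kept its direction and passed under every alternative run for it (27 each). These identifiers were picked by small p on the same libraries, so they do not speak for the other called genes. The number of called genes stayed within 1.5 times the 5832 of the reported test, except with limma-trend on deposited RPKM (3270, or 3234 with a pseudocount of 1 and 3058 without a filter) and at an adjusted p under 0.01 (3576). Of the 5832 genes, 2960, 2924 and 2810 were called in the same direction in these RPKM settings, in the same order. Negative calls, 2445 in the reported test, were 205, 179 and 195 in these RPKM settings, 863 with RPKM on own totals (beside 4980 positive), 916 with library totals (beside 5089 positive) and 1241 at 0.01. Library totals also gave 5033 age changes in JM140-JM144 and 698 genes with opposite age changes. These were 297 without JM117 and JM141, and 94 (without JM143) to 217 when 1 library was left out. With 1 surrogate variable 4507 genes were called and 4277 shared in the same direction, and thinning to the smallest total gave 5620 and 5424. The scaling factor's difference was 0.176 to 0.28 when 1 library was left out and did not pass without JM126, JM127 or JM136 (adjusted p = 0.0683, 0.0662 and 0.0502 in the exact permutation test). That of genes at 1 CPM was 328 to 666 and passed only without JM128 (exact permutation test, adjusted p = 0.0428). The causes were not tested. No paired analysis was possible because replicate numbers pair no libraries. Unnamed genes, 1 exercise label for both 27-week runs, which no value here checks, and 5 libraries a set limit what the contrast can show.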
